A study of Bos taurus with 56 samples.

Results

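Expression in the Longissimus dorsi was compared between Nguni and Bonsmara bulls that received the same high energy diet. The comparison used 24 of the 42 libraries with counts in the series, 15 from Nguni and 9 from Bonsmara, whose labels name that diet. Library titles such as N14_1, N14_2 and N14_3 share a stem, here N14, and their counts were added up per stem. This gave 5 Nguni (N008, N11, N14, N35 and N37) and 3 Bonsmara (B199, B25 and B6) of the 14 stems with counts. A stem was read as 1 bull, which the labels do not state, so the p-values measure the spread between these stems, which may be technical. The labels hold 3 further libraries of the 2 groups, which were not analysed here.

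The Nguni is labelled a Sanga breed and the Bonsmara a Sanga-related one. Both groups had been in a feedlot for 120 days on feed with 12.0 MJ of metabolizable energy (ME) per kg. The other stems with counts, 3 Nguni (N1, N215 and N33) and 3 Bonsmara (B11, B126 and B51), received 10.9 MJ ME per kg and were used to see whether a breed difference also appeared on another diet. The sources used here give no age, weight or sampling time. The diet of N11 is not certain: it is labelled high energy, but the deposited tables place it with the low energy Nguni, and N1 the other way round. The labels were followed, and values with the 2 exchanged are given where they differ.

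The Longissimus dorsi is the long muscle beside the spine and is sold as loin and rib cuts. It is the usual muscle for judging beef, and it holds muscle fibres with fat cells, connective tissue and blood vessels between them. Nguni cattle are small-framed and indigenous to southern Africa, while Bonsmara cattle are a beef breed derived from the Afrikaner, also a Sanga, and British breeds. RNA from a piece of muscle mixes all its cells, so fewer cells of a type and less RNA per cell cannot be told apart in any of the values below. The deposited tables list 20791 Ensembl gene IDs without names, and the cattle gene table in use, with 37063 genes, matched 0 of them. Genes are therefore given by ID, no function is stated for any of them, and the muscle label was not checked against marker genes.

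The 24 libraries held 8156040 to 78224599 counts, and the stems 34832685 (N37) to 101757197 (B6). Library B6_1 supplied 76.9% of the counts of B6. Across genes, library N008_3 correlated with the other 2 libraries of its stem at Pearson's r of 0.902 and 0.908, while each of the other 23 libraries reached at least 0.933 with one of its own stem. N37_1 and N11_2 had the next lowest values, 0.933 and 0.950 at best. N215_2, a low energy Nguni library, correlated with the others of its stem at 0.891 and 0.896, and results are given without it and N008_3 where they rest on them. Levels are in CPM, counts scaled to a common total per stem after adjustment by the trimmed mean of M values (TMM), and a log2 fold change is Nguni minus Bonsmara with its standard error (SE).

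Of 13219 genes tested, 338 were higher in every Nguni than in every Bonsmara and 458 were lower in every Nguni than in every Bonsmara. These 796 genes, here called separated, were 6.02% of those tested (2.56% higher and 3.46% lower). With exchangeable stems and no breed difference the share expected is 0.0357, that of the 56 arrangements with full separation. Whether 6.02% differs from it was not tested, so not all of the 796 can be read as breed differences. The differences of most of the 796 were small. The median log2 fold change was 0.57 among the 338 and -0.80 among the 458, and 75 and 143 of them differed at least 2-fold. Over all genes the median absolute log2 fold change was 0.32, below the median SE of 0.34, and 8.71% of genes differed at least 2-fold. The edgeR quasi-likelihood test called 0 genes after Benjamini-Hochberg adjustment (0.0% of those tested, smallest adjusted p = 0.237). At an unadjusted p under 0.05 it had 1154 genes (8.73%), 533 higher (4.03%) and 621 lower (4.70%) in Nguni. The share at this threshold was above the 5% expected without any difference, and it fell to 3.92% (537 genes) without B25, to 5.28% (723 genes) without B6 and to 5.61% (739 genes) without N35.

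**Figure D1:**
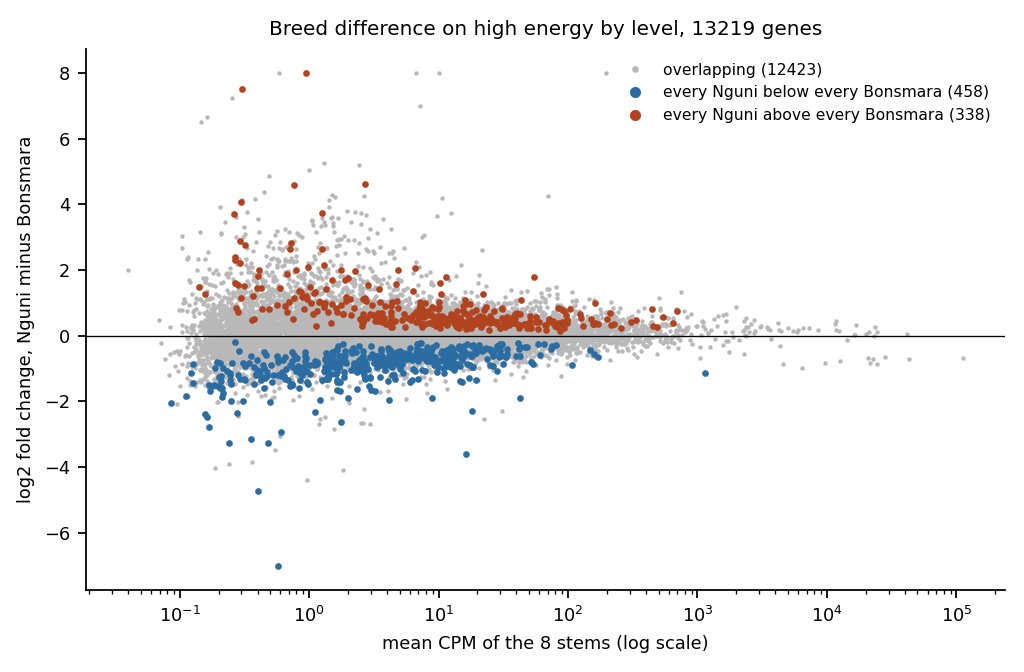
Log2 fold change of each of 13219 genes (Nguni minus Bonsmara on high energy, vertical axis) against the mean CPM of the 8 stems (horizontal axis, log scale). Red points are the 338 genes higher in every Nguni, blue points the 458 lower in every Nguni and grey points those whose stems overlap. Values beyond 8 are drawn at 8, and the largest differences lie at low levels.

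Among the separated genes, direction varied with the level of the gene. Among 2854 genes under 1 CPM, 46 were separated higher and 114 lower in Nguni, and among 5462 genes at 1 to 10 CPM the numbers were 119 and 218. Among 4230 genes at 10 to 100 CPM, 150 were higher and 121 lower. Among 673 genes at 100 CPM or more, 23 were higher and 5 were lower. So among the separated genes, lower levels in Nguni were more frequent where expression was weak and higher levels where it was strong. Of all genes tested, 52.6% were higher in Nguni on high energy, and their direction was not counted by level. With DESeq2 size factors in place of TMM the counts were 47 and 110, 130 and 202, 171 and 118, and 26 and 4 in the same order. Without libraries N008_3 and N215_2 they were 40 and 139, 122 and 222, 202 and 102, and 39 and 6. With N1 and N11 exchanged the contrast was weaker at both ends, with 55 and 96, 176 and 232, 184 and 148, and 25 and 11. Whether this order differs from chance was not tested. The share of separated genes was 5.61%, 6.17%, 6.41% and 4.16% from the lowest to the highest level, near the 6.02% of all genes.

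The rule for naming genes gave 2 IDs in each direction, those with the smallest p among the separated genes. None of the 4 passed the edgeR adjustment, and all 4 had an adjusted p under 0.05 in DESeq2. ENSBTAG00000038893.1 was at 0.639 CPM in N008, 0.253 in N11, 0.599 in N14, 0.450 in N35 and 0.495 in N37. It had 0 counts in all 9 Bonsmara libraries on high energy. The mean of the Nguni, 0.487 ± 0.151 CPM (SD, n = 5), was at least 29.7-fold higher than the 0.0164 CPM that 3 counts over the 3 Bonsmara stems would give, for counting error only. The values rested on 8 to 35 counts per Nguni stem, and 1 of the 15 Nguni libraries, N37_1, was at 0. The edgeR adjusted p was 0.367 and the DESeq2 adjusted p was 0.000944. On low energy the breeds overlapped, with 0.208, 0.159 and 0.559 CPM in N1, N215 and N33 and 0, 0.366 and 0.116 CPM in B11, B126 and B51, so the gene was counted in Bonsmara bulls too.

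ENSBTAG00000002858.5 was also higher in every Nguni, at 2.44 CPM in N008, 1.04 in N11, 2.93 in N14, 1.14 in N35 and 1.62 in N37. The Bonsmara were at 0.400 CPM in B199, 0.198 in B25 and 0.282 in B6. The lowest Nguni was 2.61 times the highest Bonsmara, and each of the 15 Nguni libraries (0.811 to 4.15 CPM) lay above all 9 Bonsmara libraries (0.0594 to 0.685 CPM). The group means were 1.84 ± 0.83 CPM (SD, n = 5) and 0.294 ± 0.101 CPM (SD, n = 3). Their log2 difference was 2.64 with an SE of 0.54 (edgeR adjusted p = 0.457, DESeq2 adjusted p = 0.000944). The low energy means were 2.09 ± 1.07 CPM in Nguni and 0.911 ± 0.473 CPM in Bonsmara (n = 3 each). Their log2 difference was 1.18 with an SE of 0.53 (edgeR adjusted p = 0.956), and N215 at 1.03 CPM lay below B51 at 1.42 CPM.

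Among the genes lower in Nguni, ENSBTAG00000023600.2 had the smallest p. It was at 12.0 CPM in N008, 14.1 in N11, 11.7 in N14, 10.3 in N35 and 14.3 in N37. The Bonsmara were at 22.8 CPM in B199, 30.7 in B25 and 40.8 in B6. The Nguni were close to each other (12.5 ± 1.7 CPM, SD, n = 5) and the Bonsmara spread more widely (31.5 ± 9.0 CPM, n = 3). All 15 Nguni libraries, at 9.59 to 15.05 CPM, lay below all 9 Bonsmara libraries, at 20.3 to 54.6 CPM. The log2 fold change was -1.33 (SE 0.22, edgeR adjusted p = 0.237, DESeq2 adjusted p = 0.000776). On low energy no such order was seen, with 18.3, 21.5 and 27.8 CPM in N1, N215 and N33 and 25.2, 16.3 and 17.8 CPM in B11, B126 and B51. The difference of the breed effect between the diets was -1.52 on the log2 scale (SE 0.34, edgeR adjusted p = 0.855).

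ENSBTAG00000000905.4 was near the limit of counting in Nguni, at 0.110 CPM in N008, 0.0316 in N11, 0.128 in N14, 0.0857 in N35 and 0.193 in N37, from 1 to 7 counts per stem. The Bonsmara had 30 to 112 counts per stem, which gave 1.37 CPM in B199, 0.595 in B25 and 1.32 in B6. The lowest Bonsmara was 3.09 times the highest Nguni, and the log2 fold change was -3.28 (SE 0.56, edgeR adjusted p = 0.237, DESeq2 adjusted p = 0.000944). Single libraries overlapped, because B6_2 had 0 counts beside 100 in B6_1 and 12 in B6_3. On low energy the level was 0.280 ± 0.154 CPM in Nguni and 0.541 ± 0.298 CPM in Bonsmara (SD, n = 3 each), and B126 at 0.203 CPM lay among the Nguni.

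**Figure D2:**
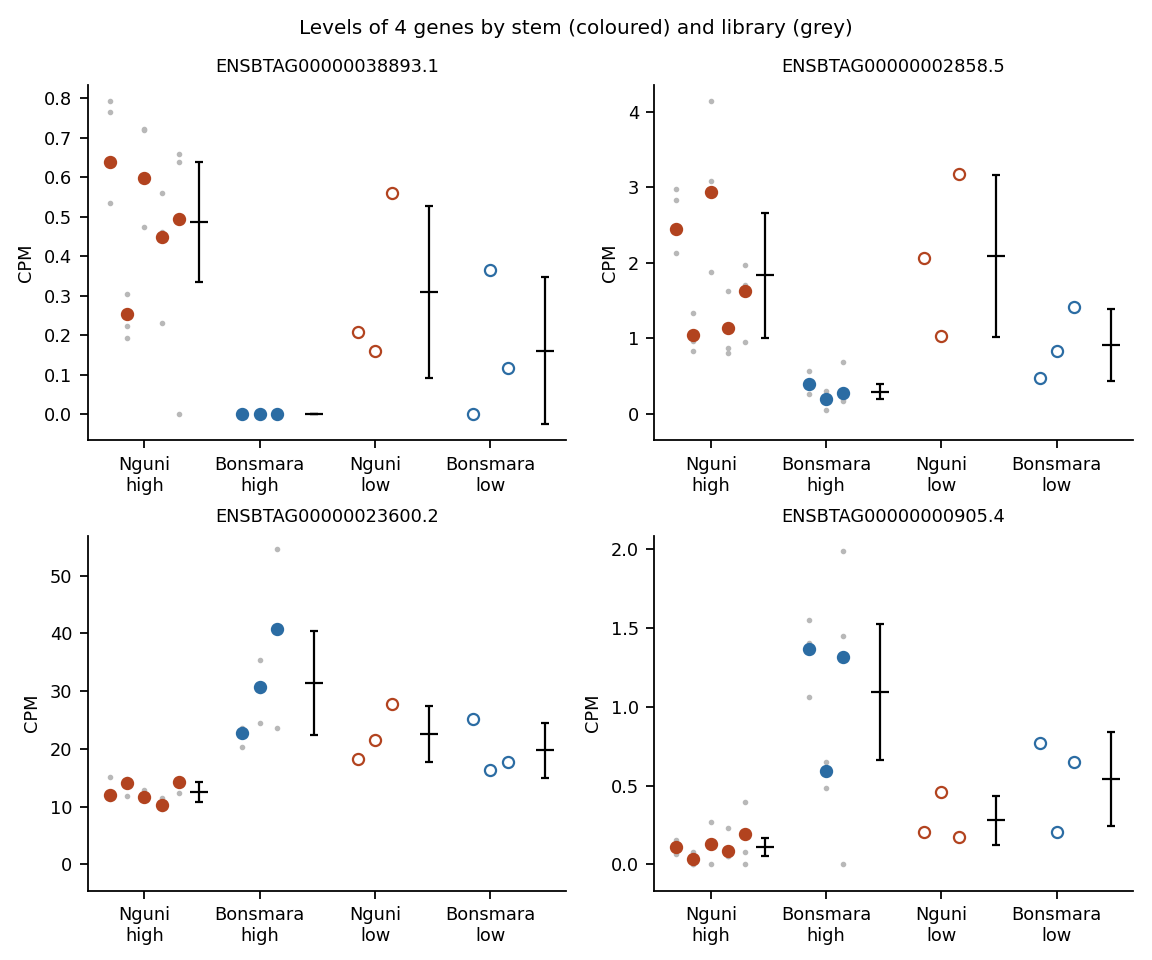
CPM (vertical axis) of the 4 genes in each stem, by breed and diet. Filled circles are the high energy stems, open circles the low energy stems, grey points the single libraries of the high energy stems, and black bars the mean ± SD of a group. On high energy the stems of the breeds do not overlap in any panel, though single libraries meet or overlap at 0 for ENSBTAG00000038893.1 and ENSBTAG00000000905.4, and on low energy the stems overlap in all 4.

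A further gene showed 1 Nguni at the Bonsmara level and was chosen after its values were seen. ENSBTAG00000034077.3 was at 0 CPM in N008, 0.0633 in N11, 0.0214 in N14 and 0.0857 in N35, from 0 to 4 counts per stem. N37, the fifth Nguni, was at 4.04 CPM from 147 counts. The Bonsmara were at 3.83 CPM in B199, 6.88 in B25 and 5.09 in B6. All 3 libraries of N37 held the transcript, at 6.24, 3.67 and 2.57 CPM, while 9 of the 15 Nguni libraries had 0 counts. On low energy, unlike on high energy, all Nguni lay below all Bonsmara (edgeR adjusted p = 0.956). The values were 0.116, 0 and 0.315 CPM in N1, N215 and N33 and 6.06, 3.38 and 4.05 CPM in B11, B126 and B51. With all stems the log2 fold change on high energy was -2.66 (SE 1.28, edgeR adjusted p = 0.557). Weighting the stems by quality in limma voom gave -5.81 (adjusted p = 0.110). Limma voom on single libraries, with the stem as a random effect, gave -5.63 (adjusted p = 1.08e-05). That fit takes libraries as observations, with 1 within-stem correlation for all genes. Its p can be too small for a gene where 1 stem departs in all its libraries. The call thus depended on the model. Without N37 the log2 fold change was -6.95 in edgeR, given as a description only, because the gene was picked for the departure of that stem.

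DESeq2, run on the same 14 stems, called 27 genes (0.18% of 15040 with an adjusted p), 9 higher and 18 lower in Nguni. Of these, 8 of the 9 and all 18 were separated between breeds, as were 6.02% of all genes tested. Over single libraries 5 were separated (as were 21 of all genes tested, 0.159%), and all 27 had an unadjusted edgeR p of at most 0.00358. These measures use the same stems and contrast, so their overlap is largely built in and is no separate evidence. By mean level over the 8 stems, 6 of the 27 were under 1 CPM, 13 at 1 to 10 CPM and 8 above 10 CPM. The calls moved with the bulls included. Without N11 DESeq2 called 67 genes, of which 25 were among the 27, and without B25 it called 5, of which 4 were. With N1 in the place of N11 it called 34, and 16 were among the 27. Without libraries N008_3 and N215_2 it called 37, and 23 were among the 27. Over the 12 changes of stems or libraries tried with DESeq2, 3 of the 27 were called each time, 7 were called in at least 10 and 7 in fewer than 5. ENSBTAG00000023600.2 and ENSBTAG00000000905.4 were called in all 12. ENSBTAG00000002858.5 was called in 11 (adjusted p = 0.0938 without B25), and ENSBTAG00000038893.1 in 11, with no adjusted p given without N37. The other edgeR and limma settings and DESeq2 as reported gave a wide range of adjusted p. It ran from 0.000944 to 0.880 for ENSBTAG00000038893.1 and ENSBTAG00000002858.5, from 0.000776 to 0.880 for ENSBTAG00000023600.2 and from 0.000944 to 0.680 for ENSBTAG00000000905.4. The changes of stems or libraries in DESeq2 lie outside this range in part, with 5.45e-05 to 0.000104 for the 4 genes in the 8 high energy stems alone. No direction reversed, but leaving out a stem could not reverse it, because the genes were chosen as separated.

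**Figure D3:**
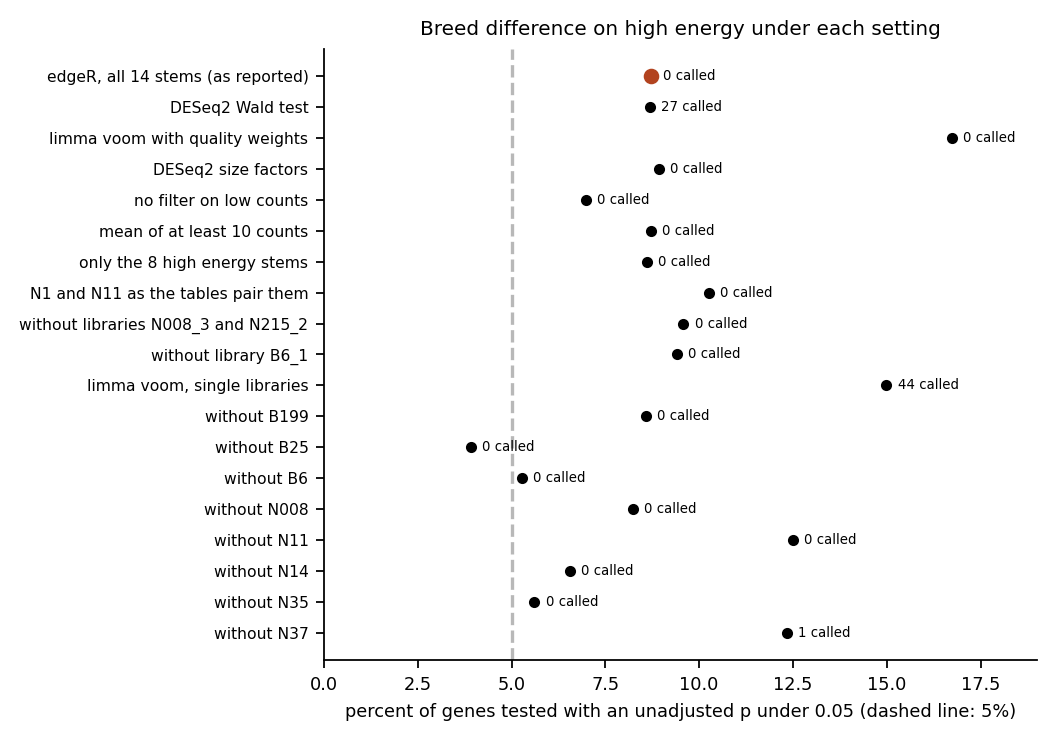
Percent of genes tested with an unadjusted p under 0.05 for the breed difference on high energy (horizontal axis) under each setting (vertical axis). The red point is the edgeR fit of all 14 stems, 8.73%, the dashed line marks 5%, and the text beside each point gives the genes called at an adjusted p under 0.05. Only the fit without B25, at 3.92%, lies below the line.

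Across the whole profile, likeness did not follow breed for all stems. Pearson's r of log2(CPM + 0.1) across genes, which are not independent replicates, was 0.902 to 0.977 between stems of different breeds (median 0.960, 15 combinations), 0.906 to 0.973 within Nguni (median 0.942, 10 combinations) and 0.966 to 0.974 within Bonsmara (3 combinations). N11 was most like the Bonsmara B6 (0.977), N37 was as like B6 as N11 at 3 decimals (0.973), and B199 was most like the Nguni N14 (0.968). N008, N14, N35 and B25 were most like a stem of their own breed, so 4 of the 8 stems had their nearest stem within the breed and 4 (N11, N37, B199 and B6) outside it. Leaving N008 out raised the median within Nguni to 0.963, against 0.961 between breeds. The SD of log2(CPM + 0.1) among bulls, as a median over genes, was 0.455 in Nguni, 0.408 without N008 and 0.306 in Bonsmara. The SD among the libraries of 1 stem was 0.327 in Nguni and 0.229 in Bonsmara, so the Nguni libraries also varied more within a stem. The Nguni libraries held 8156040 to 20673557 counts and the Bonsmara libraries 9989464 to 78224599, and the Nguni value includes N008_3. Whether depth or that library accounts for the difference was not tested.

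**Figure D4:**
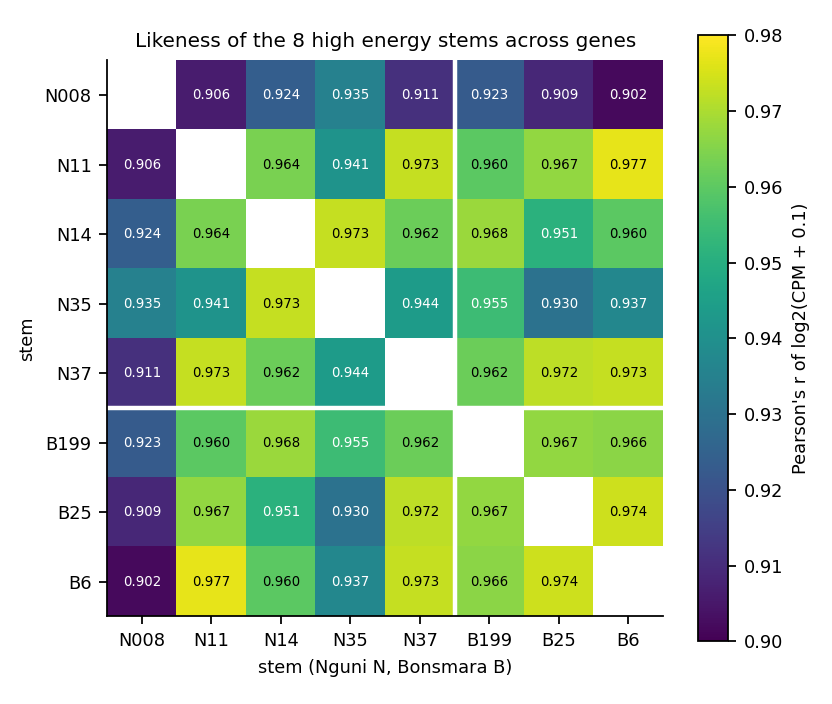
Pearson's r of log2(CPM + 0.1) across 13219 genes for each combination of the 8 high energy stems (both axes), with Nguni and Bonsmara divided by white lines. The values of N008 run from 0.902, the lowest of all, to 0.935, and N11 with B6 has the highest, 0.977.

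The low energy bulls, which share no library with the high energy ones, gave a second reading of the separated genes. Of the 338 higher in Nguni on high energy, 229 (67.8%) were also higher on low energy, against 52.8% of all genes tested. Of the 458 lower, 301 (65.7%) were also lower, against 47.2% of all genes. The differences were smaller there, with a median log2 fold change of 0.17 among the 338 and -0.16 among the 458. The genes were chosen by their high energy values, which enlarges their differences on that diet. Smaller differences in other stems therefore do not measure an effect of diet. On low energy 1187 genes (8.98%) had no overlap between 3 and 3 stems. Separation of 3 against 3 is easier by construction than of 5 against 3, so this share cannot be set against that on high energy. No share expected without a breed difference was computed for it, so the 1187 are not read as breed differences. Of the 338 and the 458, 28 and 27 were among the 1187 in the same direction, and 5 and 4 in the opposite one. In edgeR 478 genes (3.62%) had an unadjusted p under 0.05 on low energy, with 21 of the 338 and 21 of the 458 among them in the same direction. After adjustment 0 were called on low energy in edgeR (0.0%), 1 in DESeq2 and 1 in limma voom on single libraries. Taking both diets together, all 8 Nguni lay above all 6 Bonsmara for 10 of the 13219 genes tested and below them for 10. The number expected without a breed difference was not computed. Without libraries N008_3 and N215_2 the shares with the same direction were 71.7% and 65.9%. With N1 and N11 exchanged, as the deposited tables have them, they were 44.8% of 440 genes and 46.4% of 487, below the 52.8% and 47.2% of all genes, so of the 4 settings run this one did not show the shared direction. The test of the difference of the breed effect between diets called 0 genes in edgeR (0.0%), with 552 at an unadjusted p under 0.05 (4.18%), and DESeq2 also called 0. With N1 and N11 exchanged, edgeR again called 0 and had 1618 genes at that unadjusted threshold.

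**Figure D5:**
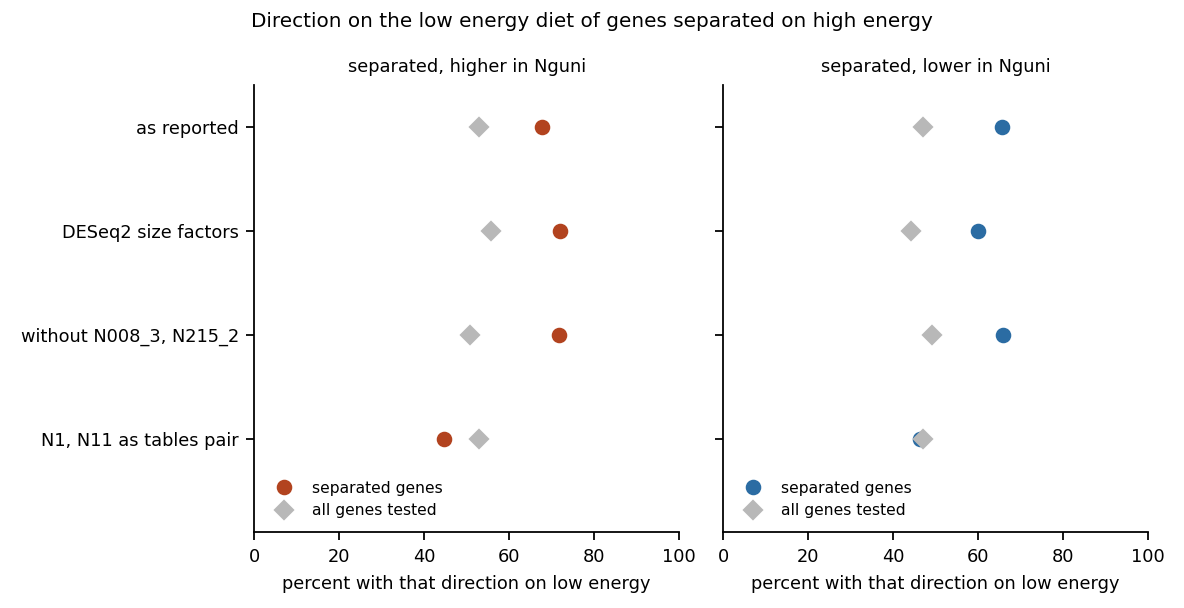
Percent of the separated genes that had the same direction on low energy (circles) and percent of all genes tested with that direction (grey diamonds), on a scale of 0 to 100 (horizontal axis), under 4 settings (vertical axis). The left panel shows the genes higher and the right panel those lower in Nguni. Circles lie at 60.1% or more in 3 settings and at 44.8% and 46.4% with N1 and N11 as the tables pair them.

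Presence and absence separated few genes. With at least 10 counts required in every stem of the breed that had the gene, 1 gene was present in all 5 Nguni and at 0 in all 3 Bonsmara, and 0 were present in all 3 Bonsmara and at 0 in all 5 Nguni. With at least 1 count required the numbers were 2 and 20 of the 20791 genes listed, and 2 and 16 of these had counts on low energy in the breed that was at 0 on high energy. B25 and B6 held 61927320 and 101757197 counts, more than any Nguni stem (at most 49122649), so 1 count is easier to reach in them. Genes detected by 1 count or more numbered 15406 ± 444 in Nguni (SD, n = 5) and 15734 ± 129 in Bonsmara (n = 3; exact permutation test, two-sided p = 0.286). At the depth of N37, the shallowest stem, the expected numbers were 15247 ± 380 and 15241 ± 225 (exact permutation test, p = 1). Both values changed without library N008_3, which held 42.1% of the counts of N008, so the depth of that stem fell too. The Nguni minus Bonsmara difference moved from -328.7 to -567.3 genes (exact permutation test, p = 0.0357). At the depth of the shallowest stem it moved from 6.4 to -135.0 (exact permutation test, p = 0.321). N008_1 and N008_2 held 16720179 and 11728913 counts, so N008 became the shallowest stem and these values lie at different depths. The 10 most abundant genes took 30.0% of the counts in N008, 40.4% in N11, 29.6% in N14, 26.5% in N35 and 31.4% in N37, and 33.8% in B199, 43.0% in B25 and 42.2% in B6. The means were 31.6 ± 5.3% in Nguni and 39.6 ± 5.1% in Bonsmara, and N11 lay above B199 (exact permutation test, two-sided p = 0.0714, where 0.0357 is the smallest that 56 arrangements can give). Adjusted over these 3 tests the p-values were 0.429, 1 and 0.214.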

How the data were processed

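RNA from frozen Longissimus dorsi was sequenced after Illumina TruSeq preparation, per the labels' protocols. The deposited values are whole numbers per gene and were treated as estimated counts, because Salmon is among the named tools; how they were made is not stated. They fill 4 tables, and each library stands with identical values in 2 of them. Per the submitters' processing notes, the tools included Salmon, Trimmomatic, DESeq2 and FastQC, with no version or role. The build, annotation and strandedness were not given in the sources used here. Without known strand, overlapping and antisense genes cannot be told apart, and near-identical copies may share reads.

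Counts were summed per stem. Genes passing edgeR's filter (minimum count 10) numbered 13219 and held 99.97% of the counts. The 14 stems of 4 groups were fitted together with edgeR 4.0.16 (TMM, quasi-likelihood test, 10 residual degrees of freedom) in R 4.3.3, without covariates, and tested on simulated data first. The SE is the absolute log2 fold change divided by the square root of F. DESeq2 1.42.0 and limma 3.58.1 gave alternatives, and scipy 1.17.1 the exact permutation tests. Named genes were, since IDs could not be paired with symbols, the 2 in each direction with the smallest p among genes whose stems did not overlap. Planned gene lists were not run for the same reason. The members and lists were chosen with earlier results of these data known.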

Additional observations from a re-analysis of the deposited data

Results flagged for a closer look

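ENSBTAG00000034077.3 stood at 4.04 CPM in N37, far from the other 4 Nguni on high energy, which held 0 to 0.0857 CPM. The gap to the nearest of them was 0.979 of the range of the 5 stems, above the critical value of 0.71 (Dixon's test for 5 values). Chance flags about 1 in 20 groups of values fixed in advance, but this gene was picked among all genes because 1 Nguni stood apart, so that rate does not apply and the gap is only a description.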

How the results depend on the processing

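The number of genes called was 0 in edgeR as reported, 27 with DESeq2, 44 with limma voom on single libraries (10 shared with DESeq2), and 0 to 1 when 1 stem was left out (1 without N37, ENSBTAG00000034077.3, which was picked for that stem's departure). The fit with 44 calls took libraries, which are not replicate bulls, as observations with the stem as a random effect. Genes at an unadjusted p under 0.05 numbered 1154 as reported, 2211 with limma voom quality weights, and 537 (without B25) to 1649 (without N11) with 1 stem left out. Their share higher in Nguni was 46.2% as reported, 56.8% with DESeq2 and 36.3% with limma voom on single libraries. Genes without overlap numbered 894 to 2165 with 1 stem left out, where fewer stems make separation easier by construction. For the difference between diets, genes at an unadjusted p under 0.05 numbered 552 as reported, 1989 with voom quality weights, 1618 with N1 and N11 as the tables pair them, and 275 to 880 with 1 stem left out. The Nguni minus Bonsmara difference in genes with at least 1 count was -328.7 as reported and -567.3 without N008_3 (exact permutation p = 0.0357). Leaving that library out also lowered the depth of N008. At the depth of the shallowest stem of each setting, which is not always the same, the difference was 6.4 as reported and -135.0 without N008_3 (exact permutation p = 0.321). With 1 stem left out it was -148.2 to 122.9, with the sign reversed without N008 (-148.2), B6 (-101.6), N37 (-15.0) and B25 (-2.1). The share of the 10 most abundant genes differed by -8.06 points as reported and -10.53 with N1 in place of N11 (exact permutation p = 0.0357). The cause of the other changes was not tested. No paired analysis was possible because the suffixes number libraries of 1 stem and each stem belongs to 1 group. The planned gene lists were not run. Depth limits what can be said of genes with few counts, such as ENSBTAG00000000905.4 and ENSBTAG00000038893.1.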
